A study of Mus musculus with 36 samples.

Results

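The small leucine-rich proteoglycan genes Dcn, Lum, Bgn, Fmod, Ogn, Prelp and Aspn were followed in whole mouse kidneys during the first week after birth. These 7 genes were chosen by name, each through the RefSeq transcript with the highest mean read count, out of 20458 genes with a symbol in the table. The 36 libraries came from C57BL/6 mice at postnatal day 1 (P1), day 3 (P3) and day 7 (P7), with 3 libraries in each of 12 groups. In the Pkd1 model, the WT kidneys were Pkd1f/f and the KO kidneys Pkd1f/f:HoxB7-Cre. In the Pkd2 model, they were Pkd2f/f and Pkd2f/f:HoxB7-Cre. All mice therefore carried the floxed alleles, and HoxB7-Cre is active in the collecting duct and not in the stroma. Pkd1 and Pkd2 encode polycystin-1 and polycystin-2, whose loss causes polycystic kidney disease. Total counts ranged from 7179152 to 15850818 reads per library, with a median of 13143336. Nothing in the labels says whether the 3 libraries of a group came from separate litters, so a p-value measures only the spread between these libraries.

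Small leucine-rich proteoglycans are secreted proteins with a curved, leucine-repeat core that lies on collagen fibrils and sets how thick and how closely packed the fibrils are. Decorin (Dcn), biglycan (Bgn) and asporin (Aspn) form one class, in which decorin and biglycan carry chondroitin or dermatan sulfate chains and bind TGF-beta. Lumican (Lum), fibromodulin (Fmod) and Prelp form another class, with keratan sulfate chains on lumican and fibromodulin, and Prelp links basement membranes to collagen. Osteoglycin (Ogn) belongs to a further class. Fibroblasts and other stromal cells are their usual source, and their build-up is a familiar part of fibrosis in the kidney.

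The genes lie in clusters of their relatives. On mouse build GRCm38 (mm10), Dcn (10:97479609-97518143) and Lum (10:97565128-97572703) stood beside Kera and Epyc, and the 4 genes spanned 202.4 kb. Ogn (13:49608046-49624501) and Aspn (13:49544443-49567557) stood beside Omd and Ecm2 within 119.7 kb. Prelp (1:133910304-133921414) and Fmod (1:134037254-134048277) stood beside Optc within 151.1 kb. Bgn (X:73483602-73495933) was alone on the X chromosome. All were transcribed from the plus strand except Prelp. In Prelp, 350 of the 3615 exonic bases overlap exons of Gm15851, so a part of its reads could belong to that gene.

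RefSeq promoter sequence (GRCm38.p6) was available for 5 of the 7 genes, and 3 are shown because these genes sit in different clusters and moved differently in the KO kidneys. Bgn and Prelp were higher in Pkd2 KO kidneys at P7, whereas Ogn had lower values. The sequences run 5′ to 3′ on the strand of the gene, from 250 to 21 bases before the start. Bgn was read at chrX:73483351-73483580, Prelp at chr1:133921422-133921651 on the minus strand and Ogn at chr13:49607765-49607994. Capitals mark 4 motifs on either strand. The 4 are the TATA box, written TATAAA, the GC box, written GGGCGG, the core of a SMAD element, written GTCTG, and the core of a TEAD element, written GGAATG.
Bgn: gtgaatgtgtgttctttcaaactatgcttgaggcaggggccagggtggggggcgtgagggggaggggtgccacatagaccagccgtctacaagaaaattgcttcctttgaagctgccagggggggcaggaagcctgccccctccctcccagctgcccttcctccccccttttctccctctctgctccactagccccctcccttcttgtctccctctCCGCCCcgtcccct
Prelp: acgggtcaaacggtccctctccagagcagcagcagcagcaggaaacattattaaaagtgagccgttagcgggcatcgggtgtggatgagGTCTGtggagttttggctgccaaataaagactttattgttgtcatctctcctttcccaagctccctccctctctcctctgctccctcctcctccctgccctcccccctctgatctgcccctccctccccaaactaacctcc
Ogn: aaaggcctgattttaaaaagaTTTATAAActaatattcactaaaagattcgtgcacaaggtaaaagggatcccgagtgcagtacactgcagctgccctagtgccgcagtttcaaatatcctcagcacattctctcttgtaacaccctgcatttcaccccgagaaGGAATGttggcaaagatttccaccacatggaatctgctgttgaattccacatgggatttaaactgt
Bgn had 62.2% G and C, more than 78.0% of the 32851 promoters of the same length, with 1 GC box, which 29.8% of all promoters hold. Ogn had 41.7% G and C, with 2 overlapping matches to the TATA box on opposite strands and 1 match to GGAATG, each of which is found in 11.8% of all promoters. Prelp had 55.7% G and C and 1 match to GTCTG, which 39.7% of promoters hold. Fmod held 2 matches to GTCTG, and Aspn, at 29.6% G and C, held 2 matches to TATAAA. No motif was shared by all 5 promoters, and a match here is a description of letters, not of a bound site.

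A limit of the count table bears on Dcn and Aspn and stands before the results. Reads were counted for each RefSeq transcript, and a gene listed as 1 transcript had a median count of 156.8 per library in its highest row, whereas genes with 2 transcripts had a median of 1.28. HTSeq by default leaves out a read that fits more than 1 feature. Dcn is listed as 2 transcripts, which differ in their first exon, and 181 of the 1758 exonic bases of the counted transcript are not shared with the other. Its counts, 3789 reads over all libraries, thus came from a small stretch, while the other transcript had 14 reads in all. A change in Dcn cannot be told apart from a change in the use of its first exon. The rows of Aspn map to the same exons, hold 3 reads in 36 libraries between them, and give no measure of asporin. The remaining 5 genes are listed once each.

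One library stood apart, and results that rest on it are given with and without it. In replicate 2 of Pkd2 WT at P3, the 5 adrenal cortex markers summed to 4818 CPM (counts scaled to library size with TMM factors). They summed to 1403 CPM in replicate 1 of Pkd1 KO at P7 and to 1254 CPM in replicate 3 of Pkd2 KO at P7, against 8.22 to 34.3 CPM in the other 33 libraries. The first library also held the highest sum of adipocyte markers (599.2 CPM) and of skeletal muscle markers (86.7 CPM, against a median of 2.51 CPM). It had the highest level of the 36 libraries for Lum (162.7 CPM), Ogn (164.2 CPM), Prelp (44.6 CPM) and Dcn (24.7 CPM). The other 2 libraries with adrenal transcripts were high for some members and low for others. Replicate 3 of Pkd2 KO at P7 had the highest Bgn of the 36 libraries (1440 CPM) and the second highest Prelp (43.4 CPM), and ranked number 15 for Dcn. Replicate 1 of Pkd1 KO at P7 ranked number 3 for Bgn (1254 CPM), number 7 for Prelp and number 34 for Dcn (1.75 CPM). The part of this tissue in the proteoglycan levels was not tested beyond leaving the libraries out.

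**Figure D1:**
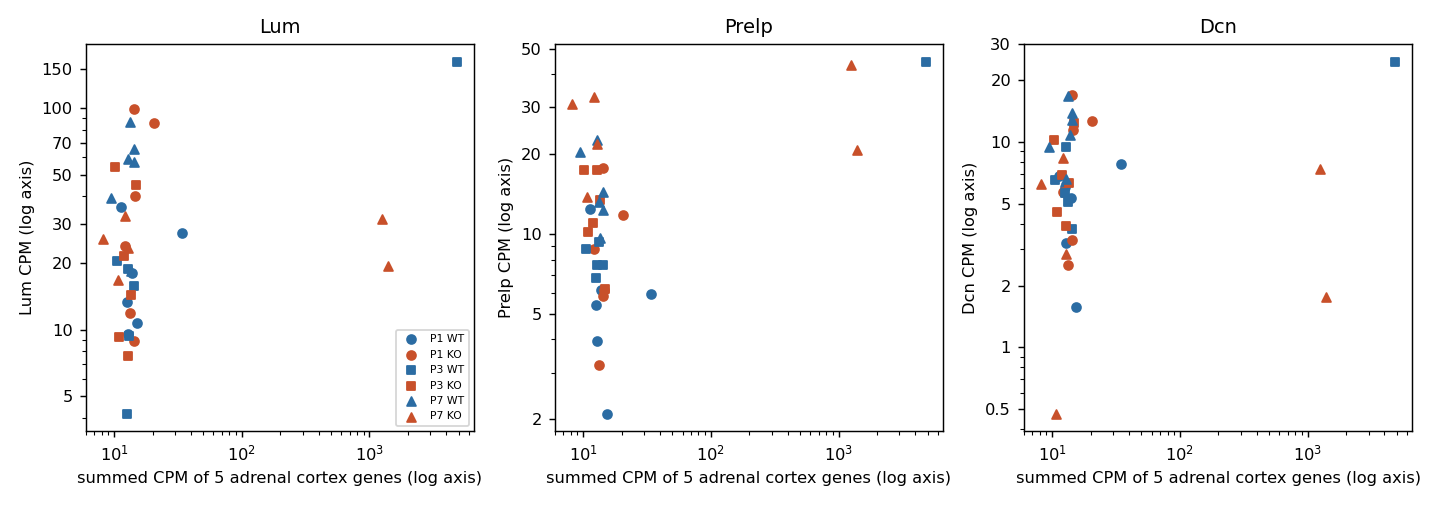
Level of Lum, Prelp and Dcn (CPM, log axis) in each of 36 libraries against the summed level of 5 adrenal cortex genes (CPM, log axis), with symbols for day and colours for genotype. The library at the far right, a Pkd2 WT kidney at P3, is the highest for all 3 genes, and of the other 2 libraries with raised adrenal genes, 1 is second highest for Prelp and 1 is among the lowest for Dcn.

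The libraries otherwise carried the marks of kidney. Markers of podocytes (4 of 4) and of proximal tubule (5 of 5) were present, summing to between 838.1 and 2252 CPM and between 1341 and 4721 CPM. Of the 7 stromal markers, Pdgfra, Pdgfrb and Meis2 were under 1 CPM in all libraries. So were all 5 erythroid markers. Such a level need not mean absence, since genes with 2 transcripts had a median count of 1.28 in their highest row. Pkd1 itself was at 245.2 ± 12.9 CPM in WT and 263.4 ± 29.98 CPM in KO kidneys of the Pkd1 model at P7 (SD, n = 3). Pkd2 was at 327.8 ± 9.30 CPM in WT and 265.8 ± 6.92 CPM in KO kidneys of the Pkd2 model, a log2 change of -0.29 (edgeR adjusted p = 0.0115). Pkd1 did not pass in its own model (log2 0.10, edgeR adjusted p = 0.556). These are counts over whole transcripts of whole kidneys. Y-linked reads were present in all 3 KO and in none of the 3 WT libraries of Pkd1 at P7, so sex and genotype cannot be told apart there. At P7 in the Pkd2 model they were present in 3 KO and 2 WT libraries.

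Per kilobase of transcript, Bgn was by far the most abundant of the 7 genes in the normal kidney. At P7 it reached 364.2 ± 75.9 CPM per kb in Pkd1 WT and 349.0 ± 73.8 CPM per kb in Pkd2 WT kidneys (SD, n = 3). Ogn followed at 26.3 ± 4.57 and 33.9 ± 8.98 CPM per kb. Fmod (17.0 ± 5.47 and 14.1 ± 1.72) and Lum (15.9 ± 8.23 and 28.6 ± 6.30) came next, in CPM per kb, and their order changed between the models. Ogn, Fmod and Lum in Pkd1 WT kidneys were not separated beyond their spread, nor were Ogn and Lum in Pkd2 WT kidneys. Prelp was lowest of the fully counted genes, at 4.84 ± 1.91 and 3.67 ± 0.29 CPM per kb. Dcn, at 5.10 ± 1.20 and 8.24 ± 1.18 CPM per kb, is understated by its counting.

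How steady each gene was also differed. From its lowest to its highest library, Bgn varied 3.32-fold, Fmod 3.74-fold and Ogn 4.10-fold. Prelp varied 21.2-fold, Lum 38.9-fold and Dcn 51.8-fold. The highest library of Ogn, Prelp, Lum and Dcn was the Pkd2 WT library at P3 that stood apart. Without it Ogn varied 2.81-fold, Prelp 20.6-fold, Lum 23.7-fold and Dcn 35.7-fold. The range of Dcn also rested on its lowest library, replicate 2 of Pkd1 KO at P7 with 6 reads, and without that library alone it was 15.6-fold. Lum ranged from 4.18 to 98.9 CPM in the 35 libraries other than the one that stood apart, and Bgn from 433.1 to 1440 CPM.

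**Figure D2:**
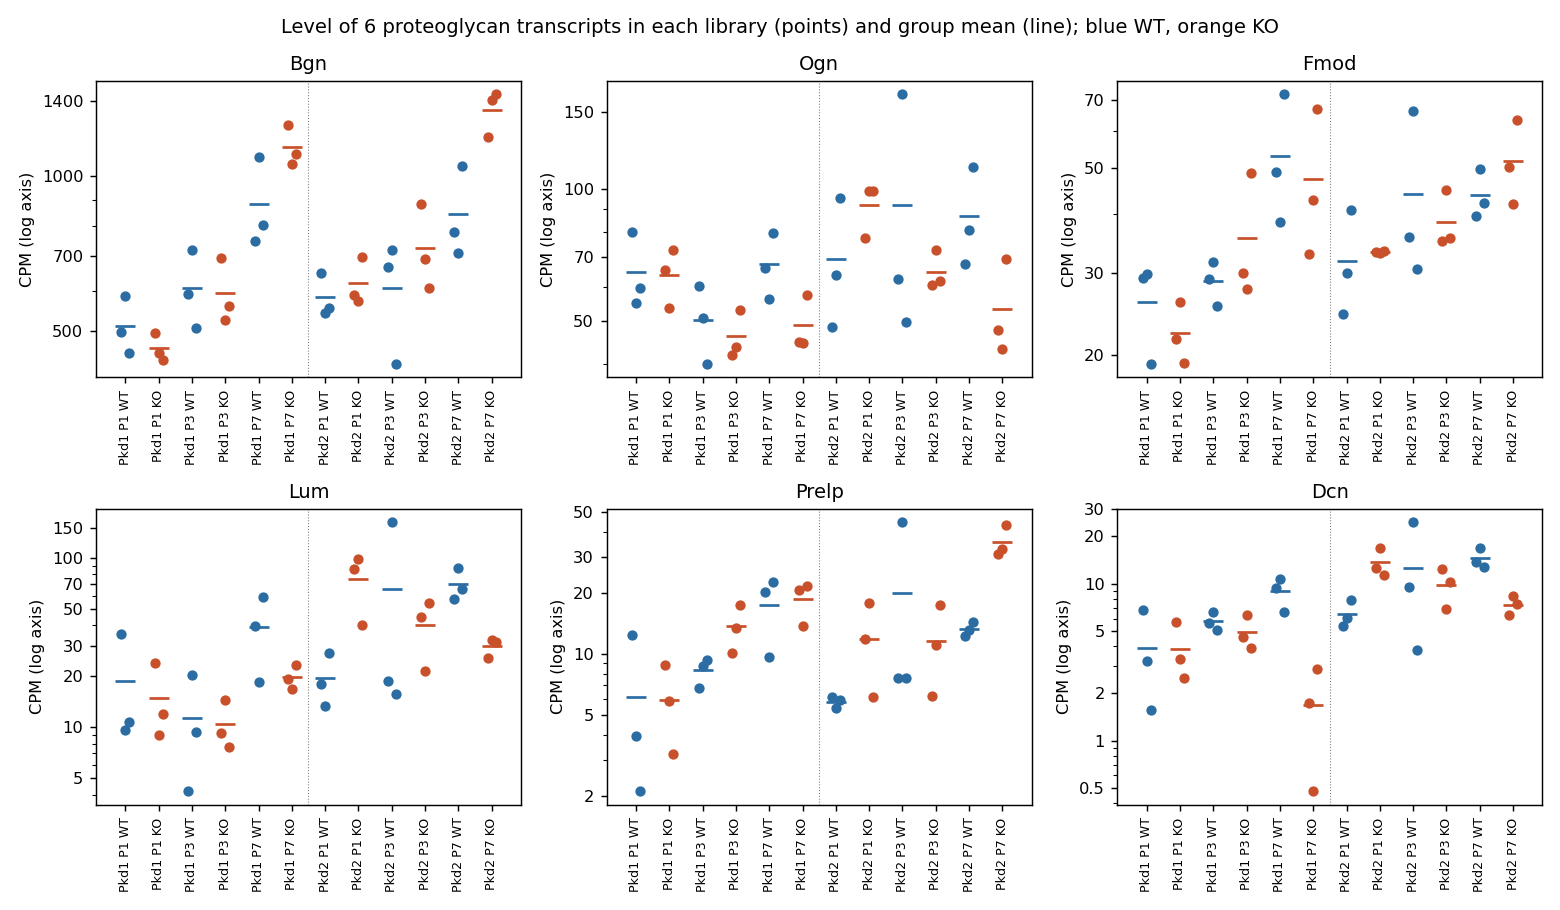
Level (CPM, log axis) of 6 proteoglycan transcripts in 36 libraries by model, day and genotype, with points for libraries and lines for group means (n = 3). Lum and Dcn in Pkd2 KO kidneys lie above WT at P1 and below WT at P7, Prelp and Bgn lie above WT at P7, and 1 WT library at P3 is far above its group in 4 panels.

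At P7, the kidneys of the Pkd2 model showed a split within the family. Among 6 tested genes, Prelp and Bgn rose, Lum and Dcn fell, and Ogn and Fmod did not pass the test. These 4 calls at an adjusted p under 0.05 stand against a background of 14.1% of 12633 transcripts called. The comparison asks what the loss of polycystin-2 in the collecting duct did to the whole kidney on the last day studied.

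Prelp, the anchor between basement membrane and collagen, was at 12.3, 13.2 and 14.4 CPM in the WT and at 31.0, 32.8 and 43.4 CPM in the KO libraries of Pkd2 at P7. The groups did not overlap, and even the lowest KO library had over double the level of the highest WT library. The log2 fold change was 1.44 ± 0.15 (SE), a 2.71-fold rise (edgeR adjusted p = 0.00139). Among all 12633 transcripts it ranked number 90 by p. Without replicate 3 of the KO group, which held adrenal transcripts, the change was 1.28 ± 0.12 (edgeR adjusted p = 0.00407).

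Biglycan, which binds TGF-beta and can signal through Toll-like receptors once released, was at 777.6, 708.9 and 1047 CPM in WT and at 1191, 1407 and 1440 CPM in KO libraries. All KO libraries were above all WT libraries. The log2 fold change was 0.68 ± 0.15, or 1.61-fold (edgeR adjusted p = 0.0219). Because Bgn was so abundant, this modest fold was the largest gain in CPM of any member. The Bgn call was lost without replicate 1 or 2 of the WT group or replicate 2 or 3 of the KO group, with log2 changes between 0.57 and 0.87 over the 6 omissions. Without the adrenal-bearing KO library it was 0.64 (edgeR adjusted p = 0.0798).

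Lumican, a keratan sulfate carrier that regulates fibril spacing, was at 57.4, 87.2 and 65.6 CPM in WT and at 25.7, 32.6 and 31.8 CPM in KO libraries. The KO values were tightly grouped below every WT value. The log2 fold change was -1.21 ± 0.16 (edgeR adjusted p = 0.00384), and it was -1.25 without the adrenal-bearing KO library (edgeR adjusted p = 0.0163). Decorin, the classical inhibitor of TGF-beta among these proteins, was at 13.8, 16.8 and 12.8 CPM in WT and at 6.28, 8.35 and 7.40 CPM in KO libraries, again without overlap. Its log2 fold change was -0.97 ± 0.17 (edgeR adjusted p = 0.0105), and -0.97 without the adrenal-bearing KO library (edgeR adjusted p = 0.0378), with the limit on its counting given above.

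Osteoglycin was at 67.6, 80.8 and 112.5 CPM in WT and at 47.7, 43.3 and 69.2 CPM in KO libraries. The groups overlapped by a single KO library. The log2 value of -0.69 ± 0.22 missed the threshold (edgeR adjusted p = 0.0784). The replicate block is a fit in which same-numbered libraries are treated as paired, and with it Ogn passed (edgeR adjusted p = 0.00962). Same-numbered libraries did not deviate together in this comparison (r = 0.05, -0.12 and 0.16), so that call rests on a pairing the data do not show. Fibromodulin was at 39.6, 49.9 and 42.2 CPM in WT and at 50.3, 41.9 and 63.3 CPM in KO libraries. These overlapped widely, with a log2 value of 0.25 ± 0.16 (edgeR adjusted p = 0.336).

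The calls at P7 rest on the spread of the 6 libraries compared. In one fit of all 18 Pkd2 libraries, whose shared spread takes in the P3 library that stood apart, the log2 values were the same but Bgn alone passed (edgeR adjusted p = 0.0246), with adjusted p of 0.102 for Prelp, 0.165 for Dcn and 0.255 for Lum. In that fit without the libraries with adrenal transcripts, Prelp (log2 1.28, edgeR adjusted p = 0.0362) and Ogn (log2 -0.91, edgeR adjusted p = 0.0322) passed, and Bgn (0.0501), Lum (0.0658) and Dcn (0.0812) lay just outside.

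In the Pkd1 model at P7, 1 of 6 tested genes passed the test, against 13.5% of 12527 transcripts. This was decorin. Its counts were 135, 158 and 89 reads in the WT and 22, 6 and 39 reads in the KO libraries, or 9.44, 10.8 and 6.64 CPM against 1.75, 0.48 and 2.86 CPM. The groups were far apart, although the KO libraries differed several-fold among themselves. The log2 fold change was -2.39 ± 0.53 (edgeR adjusted p = 0.0283). The call depended on single libraries. It was lost without replicates 1 or 2 of either genotype, where adjusted p ran from 0.0513 (KO replicate 2, log2 -1.95) to 0.097 (WT replicate 1, log2 -2.35), with 0.058 and 0.0769 for WT replicate 2 and KO replicate 1. It was also lost with the replicate block (log2 -2.54, edgeR adjusted p = 0.0611), although same-numbered libraries did not deviate together there (r = -0.21, 0.002 and -0.14).

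The other genes of the Pkd1 model did not pass at P7. Lum was at 39.5, 18.5 and 58.8 CPM in WT and at 19.4, 16.7 and 23.4 CPM in KO libraries, where the lowest WT library lay among the KO values (log2 -0.97 ± 0.36, edgeR adjusted p = 0.104). Ogn was at 66.3, 56.3 and 79.6 CPM in WT and at 44.9, 44.7 and 57.6 CPM in KO libraries, with a slight overlap (log2 -0.46 ± 0.16, edgeR adjusted p = 0.0938). Bgn was at 748.7, 1091 and 803.6 CPM in WT and at 1254, 1055 and 1104 CPM in KO libraries (log2 0.37 ± 0.17, edgeR adjusted p = 0.157). Here replicate 2 of the WT group was the exception in both directions, since it was lowest for Lum and highest for Bgn, and without it both passed, Lum at log2 -1.30 (edgeR adjusted p = 0.0199) and Bgn at 0.55 (edgeR adjusted p = 0.043). Prelp, at 20.3, 9.63 and 22.5 CPM in WT and 20.7, 13.7 and 21.7 CPM in KO libraries, was on one level (log2 0.10 ± 0.33). Fmod had a log2 value of -0.16 ± 0.29.

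The effect of the KO was then compared between the models over the 12 libraries at P7. Sex and genotype cannot be told apart in Pkd1 at P7, and this limit carries over to the comparison. None of the 6 genes passed, and across all 12343 transcripts tested 0 were called (0%), with 2130 at an unadjusted p under 0.05. The smallest p was that of Prelp, whose log2 change in Pkd1 minus that in Pkd2 was -1.32 ± 0.39 (edgeR adjusted p = 0.158). DESeq2, run as an alternative, called this difference at an adjusted p of 0.0314. For Dcn the difference was larger but less precise, at -1.41 ± 0.56 (edgeR adjusted p = 0.236). For Lum (0.26 ± 0.44), Ogn (0.25 ± 0.31), Bgn (-0.30 ± 0.24) and Fmod (-0.40 ± 0.37), the difference lay within 2 SE of 0.

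**Figure D3:**
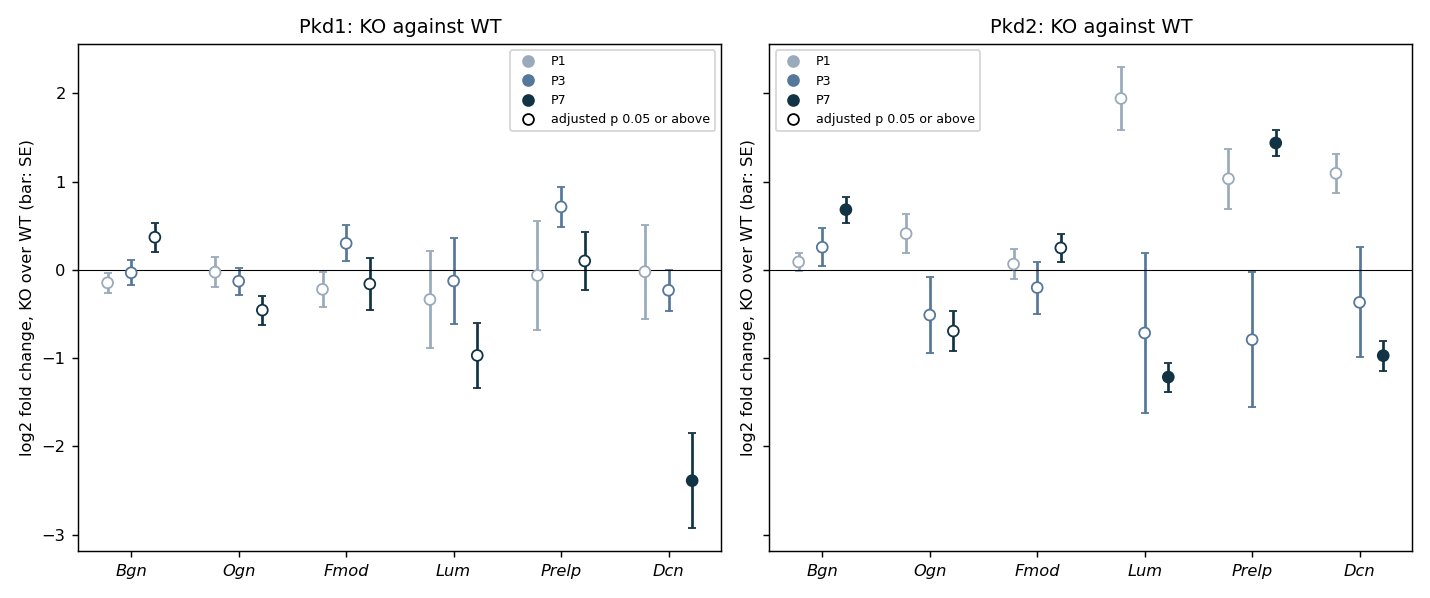
Log2 fold change of KO over WT for 6 proteoglycan genes at P1, P3 and P7 in both models, with bars for the SE (n = 3 per group) and filled points for an adjusted p under 0.05. At P7, Dcn lies below 0 in both models, and in Pkd2 Lum lies below while Prelp and Bgn lie above.

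The ratio of 2 members within a library does not depend on how libraries are scaled. At P7, the ratio of Prelp to Lum separated KO from WT libraries in both models. The ratio of Prelp to Lum counts was 0.15 to 0.22 in Pkd2 WT and 1.01 to 1.37 in Pkd2 KO libraries at P7. In the Pkd1 model it was 0.38 to 0.52 in WT and 0.82 to 1.07 in KO libraries. Before P7 the ratio was less orderly. At P1, Pkd2 KO libraries (0.14 to 0.18) were below Pkd2 WT libraries (0.22 to 0.41), and in the Pkd1 model the genotypes overlapped. At P3 the genotypes overlapped in both models. In Pkd1 the ratio was then 0.43 to 1.63 in WT and 0.93 to 2.30 in KO libraries, so that WT kidneys at P3 reached the values of KO kidneys at P7. In Pkd2 at P3 it was 0.27 to 0.485 in WT and 0.14 to 0.51 in KO libraries. The ratio of Bgn to Lum at P7 in the Pkd2 model was 8.13 to 16.0 in WT and 43.2 to 46.4 in KO libraries. In Pkd1 it overlapped, at 13.7 to 59.0 in WT and 47.3 to 64.7 in KO libraries. These ratios are descriptions, chosen after the values were seen, and carry no test.

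**Figure D4:**
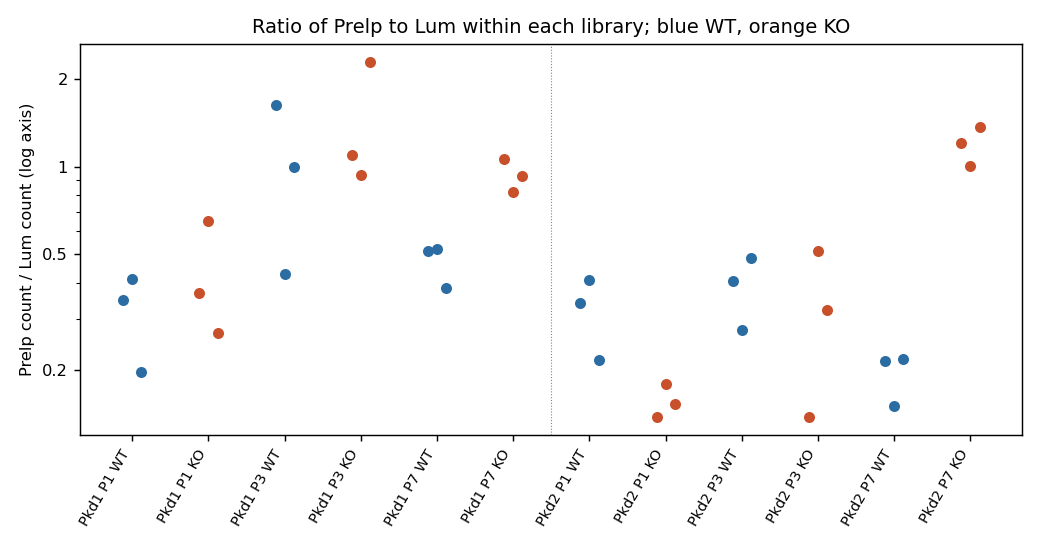
Ratio of Prelp to Lum counts (log axis) in each of 36 libraries by model, day and genotype (n = 3 per group). At P7 the KO libraries lie above the WT libraries in both models, by the wider margin in Pkd2, whereas Pkd2 KO libraries lie below WT at P1.

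At P1, before the changes at P7, the Pkd2 KO kidneys had higher, not lower, values of Lum and Dcn. Lum was at 17.99, 13.3 and 27.4 CPM in WT and at 85.5, 98.9 and 40.1 CPM in KO libraries. Dcn was at 5.34, 6.03 and 7.86 CPM in WT and at 12.6, 17.0 and 11.4 CPM in KO libraries. For both genes every KO library was above every WT library. The log2 values were 1.94 ± 0.36 for Lum and 1.09 ± 0.22 for Dcn, but neither passed (edgeR adjusted p = 0.476 and 0.625). In this comparison edgeR called 0 of 12633 transcripts (0%), with 708 at an unadjusted p under 0.05, and Lum and Dcn ranked number 12 and 17 by p. DESeq2 called both (adjusted p = 0.0223 and 0.00793). The share of all transcripts that DESeq2 called in this comparison is not given here. Prelp was at 6.13, 5.41 and 5.93 CPM in WT and at 11.8, 17.8 and 6.14 CPM in KO libraries, barely apart (log2 1.03 ± 0.34, edgeR adjusted p = 0.854). Y-linked reads were present in 0 of the 3 KO and 1 of the 3 WT libraries.

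Muscle markers were also higher in some of these Pkd2 KO libraries at P1. The summed level of smooth muscle and myofibroblast markers was 915.6, 851.8 and 779.3 CPM in WT and 746.9, 1987 and 1388 CPM in KO libraries, so that 2 KO libraries were above the WT range and 1 was below it. The 4 tested genes had log2 values of 1.88 (Cnn1), 0.70 (Acta2), 0.63 (Tagln) and 0.36 (Des), none called. Ckm, the creatine kinase of skeletal muscle, was at 0, 0.068 and 0.077 CPM in WT and at 0.97, 6.48 and 0.88 CPM in KO libraries (rank 27 by p, edgeR adjusted p = 0.71). KO replicate 2 was the highest of the 6 libraries for Lum, Dcn, Prelp and both muscle sums (skeletal muscle markers summed to 1.26 to 3.22 CPM in WT and 2.38 to 8.56 CPM in KO libraries), whereas KO replicate 1 had raised Lum and Dcn with the lowest contractile sum. The summed stromal markers overlapped, at 403.1 to 415.6 CPM in WT and 359.6 to 466.7 CPM in KO libraries. The part of these markers in the Lum and Dcn values was not tested.

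The change of the KO effect from P1 to P7 was tested directly in the 18 Pkd2 libraries. For Lum the interaction was -3.15 ± 0.96 on the log2 scale (edgeR adjusted p = 0.123), and for Dcn it was -2.06 ± 0.63 (edgeR adjusted p = 0.125). Neither passed, nor did the other 4 genes, in a test that called 1.3% of 12633 transcripts. Both passed once the libraries with adrenal transcripts were left out, with nearly the same sizes. Lum was then at -3.19 ± 0.55 (edgeR adjusted p = 0.00883) and Dcn at -2.06 ± 0.45 (edgeR adjusted p = 0.0362). DESeq2 on all 18 libraries also called both (adjusted p = 0.0452 and 0.0248). The shares of all transcripts called in these alternative fits are not given here. In the Pkd1 model the interaction of Dcn was -2.38 ± 0.72 (edgeR adjusted p = 0.054), just outside the threshold, and the test called 7.75% of 12527 transcripts and none of the 6 genes. It passed for Dcn in DESeq2 (adjusted p = 0.0118).

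No member passed in the remaining KO comparisons. In Pkd1 at P1 edgeR called 0 of 12527 transcripts (0%), with 157 at an unadjusted p under 0.05, and the 6 log2 values ran from -0.34 (Lum) to -0.02 (Dcn). In Pkd1 at P3, 0.00798% of transcripts were called. Prelp came nearest there, at 6.80, 8.77 and 9.32 CPM in WT against 10.1, 13.4 and 17.5 CPM in KO libraries, which did not overlap (log2 0.71 ± 0.22, edgeR adjusted p = 0.23). In Pkd2 at P3 edgeR called 0 of 12633 transcripts (0%), with 565 at an unadjusted p under 0.05. Of the 6 genes all but Bgn had negative log2 values in this comparison, and the 5 turned positive once replicate 2 of the WT group was left out. Lum went from -0.71 ± 0.91 to 1.23, Prelp from -0.79 ± 0.77 to 0.61 and Dcn from -0.37 ± 0.62 to 0.57, with no call either way.

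Growth of the normal kidney over the first week was followed in the WT libraries. In Pkd1 WT kidneys 3 of 6 genes rose from P1 to P7, against 25.8% of transcripts called. Y-linked reads were present in 2 of these 3 libraries at P1 and in 0 of 3 at P7, so sex was not balanced between the days. Bgn went from 512.5 ± 67.7 to 881.0 ± 183.7 CPM (SD, n = 3), a log2 change of 0.77 ± 0.16 (SE, edgeR adjusted p = 0.002). Fmod, which guides early fibril assembly, went from 26.02 ± 5.92 to 53.1 ± 17.1 CPM (log2 1.02 ± 0.28, edgeR adjusted p = 0.013). Prelp went from 6.15 ± 5.49 to 17.5 ± 6.90 CPM (log2 1.47 ± 0.49, edgeR adjusted p = 0.0373). Ogn stood at 64.8 ± 13.4 CPM at P1 and 67.4 ± 11.7 CPM at P7.

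Most of this rise fell between P3 and P7. Over that interval Lum (log2 1.76 ± 0.57, edgeR adjusted p = 0.0458), Bgn (0.53 ± 0.16, edgeR adjusted p = 0.0307) and Fmod (0.87 ± 0.27, edgeR adjusted p = 0.0397) rose in Pkd1 WT kidneys, against 16.3% of transcripts called. From P1 to P3 none of the 6 passed, against 0.439%. These calls sat near the threshold, and between 0 and 2 of the 3 held when single libraries were left out. Y-linked reads were present in all 3 Pkd1 WT libraries at P3 and in 0 of 3 at P7. Day and sex therefore cannot be told apart from P3 to P7.

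In Pkd2 WT kidneys, Bgn alone rose from P1 to P7 (582.7 ± 58.9 to 844.3 ± 178.4 CPM, log2 0.53 ± 0.18, edgeR adjusted p = 0.0452), against 26.7% of transcripts called. None of the 6 passed from P1 to P3 (1.43% called) or from P3 to P7 (27.1% called). These counts changed when the libraries with adrenal transcripts were left out. Those libraries were not in the P1 or P7 WT groups, so from P1 to P7 only the shared spread and the scaling changed. Without the libraries with adrenal transcripts, 5 of 6 genes rose from P1 to P7, namely Lum (log2 1.82 ± 0.37, edgeR adjusted p = 0.00192), Dcn (1.16 ± 0.30, 0.00945), Prelp (1.17 ± 0.35, 0.0209), Bgn (0.51 ± 0.18, 0.0405) and Fmod (0.45 ± 0.16, 0.0466). Ogn was not called. From P3 to P7, Lum (log2 2.01 ± 0.43, edgeR adjusted p = 0.00481), Dcn (1.11 ± 0.34, 0.031) and Bgn (0.61 ± 0.20, 0.0437) then rose. The 26.7% and 27.1% above are from the fit of all 18 libraries. The shares called without the libraries with adrenal transcripts are not given here, so these member counts have no background beside them.

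Across the 36 libraries the members did not vary as one block. Removing the group means, Lum and Prelp varied most closely together (Pearson r = 0.78), followed by Fmod and Ogn (r = 0.71) and the neighbours Dcn and Lum (r = 0.70). Bgn was nearly unrelated to Prelp (r = -0.01) and to Fmod (r = 0.06) within groups, although over all 36 libraries, with the day and genotype left in, these were r = 0.65 and 0.64. These are descriptions over libraries that share depth and composition, and the library that stood apart contributes to them. The 10 transcripts most like the mean standardised level of the 6 genes, of 12258 compared over 36 libraries, were led by Col3a1 (r = 0.88), Col6a1 (r = 0.88) and Col5a3 (r = 0.86). They were followed by Ctsk, Col1a2, Col6a2, Prkcd, Mfap5, Col5a2 and Qpct (r = 0.81), so that 6 of the 10 encode collagen chains.

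Some of the collagens to which these proteins bind rose as well. In Pkd2 KO kidneys at P7, 3 of 7 fibrillar collagen genes (42.9%) rose, against 14.1% of all transcripts called, with Col5a1 at a log2 change of 0.80, Col1a1 at 0.89 and Col1a2 at 0.44 (edgeR adjusted p = 0.000622, 0.00543 and 0.0293). In Pkd1 KO kidneys none passed, against 13.5% called, with Col3a1 nearest (log2 -0.54, edgeR adjusted p = 0.084), and the difference between the models was not tested for the list. The median log2 value of the list was 0.44 in Pkd2 and 0.00 in Pkd1, against a median of 0.00 over all transcripts in both. The enzymes that trim and cross-link fibrils had 4 of 7 tested genes (57.1%) higher in Pkd2 and 2 of 7 (28.6%) in Pkd1, against the same backgrounds. Loxl1 (log2 1.49 and 1.06 in Pkd2 and Pkd1) and Adamts2 (1.07 and 0.60) passed in both, and Lox (1.47) and Loxl2 (0.68), both cross-linkers, in Pkd2.

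The ligands that decorin and biglycan bind rose in both models. All 3 TGF-beta genes passed at P7, against 13.5% of all transcripts called in Pkd1 and 14.1% in Pkd2. Tgfb3 had log2 changes of 1.65 in Pkd1 and 1.49 in Pkd2, Tgfb2 0.85 and 1.14, and Tgfb1 0.53 and 0.32 (edgeR adjusted p = 0.0485 and 0.0471 for Tgfb1). Of the receptors through which decorin acts, Egfr was higher in both models (log2 0.71 and 0.71), Lrp1 was higher in Pkd2 (0.24) and Kdr, the VEGF receptor of endothelium, was lower in Pkd2 (-0.44). Kdr (log2 -0.58, edgeR adjusted p = 0.0572) and Lrp1 (log2 -0.22, edgeR adjusted p = 0.302) did not pass in Pkd1. Of the biglycan receptors, Cd14, the co-receptor of Toll-like receptors, passed in Pkd2 (log2 1.22, edgeR adjusted p = 0.0275), whereas in Pkd1 it had a log2 value of 1.18 (edgeR adjusted p = 0.0968), and Tlr2 and Tlr4 passed in neither.

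Genes that build or cut the proteoglycans are read here against the same background of 13.5% of transcripts in Pkd1 and 14.1% in Pkd2. Of 6 linker enzymes, 1 was called in Pkd1 (16.7%) and none in Pkd2. Xylt1, which adds the first sugar to the core protein, was lower in Pkd1 (log2 -2.26, edgeR adjusted p = 0.0382). Of 14 tested enzymes for chondroitin and dermatan sulfate, 3 were called in Pkd1 (21.4%) and 2 in Pkd2 (14.3%), shares near the background. Among these, Chst12, a sulfotransferase, was higher in both models (log2 0.72 in Pkd1 and 0.62 in Pkd2). Chsy1, a chain polymerase (0.52), rose and the sulfotransferase Chst3 (-1.03) fell in Pkd1, and the epimerase gene Dsel (0.41) rose in Pkd2. Of 5 tested keratan sulfate enzymes, 2 were called in Pkd2 (40%), where B4galt1 rose (0.28) and B3gnt7 fell (-0.40), and none passed in Pkd1. Among proteases that cleave these proteoglycans, 1 of 7 tested was called in Pkd1 (14.3%) and 2 of 6 in Pkd2 (33.3%). Adamts5 rose in both (log2 0.46 in Pkd1 and 0.33 in Pkd2) and Mmp14 in Pkd2 (0.43).

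Relatives outside the 7 genes gave 1 call among 5 tested in each model (20%), against 13.5% of all transcripts called in Pkd1 and 14.1% in Pkd2. Ecm2, which neighbours Aspn on chromosome 13, was lower in both models at P7 (log2 -0.61 and -0.63, edgeR adjusted p = 0.0418 and 0.00719). The other 4 tested relatives, Omd, Chad, Chadl and Podnl1, passed in neither model, and 6 of the 11 could not be tested. Of 13 tested core proteins of other proteoglycans, 1 was called in Pkd1 (7.69%) and 4 in Pkd2 (30.8%), against the same backgrounds. Sdc1, an epithelial syndecan, rose in both models (log2 0.46 and 0.52), and Spock2 (0.69), Sdc3 (0.41) and Gpc1 (0.30) rose in Pkd2.

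Cell type markers moved at the same time, and since the kidney was taken whole, fewer cells of a type and less RNA per cell cannot be told apart. The counts of markers called stand against 13.5% of all transcripts called in Pkd1 and 14.1% in Pkd2. All 4 tested smooth muscle and myofibroblast markers were higher at P7 in both models, with Acta2 at log2 1.42 in Pkd1 and 1.75 in Pkd2 and Tagln at 1.97 and 1.90. Their summed level was 1296 to 1435 CPM in Pkd1 WT and 3967 to 4190 CPM in Pkd1 KO libraries, and 1150 to 1291 CPM in Pkd2 WT and 4010 to 4503 CPM in Pkd2 KO libraries, with Myh11 under 1 CPM in all libraries. The 4 tested stromal markers passed in neither model. Their sum was 402.7 to 487.5 CPM in Pkd2 WT and 416.4 to 509.3 CPM in Pkd2 KO libraries, and 440.0 to 457.8 CPM and 414.2 to 652.1 CPM in Pkd1. Lum and Dcn fell in Pkd2 KO kidneys in which the summed stromal markers overlapped and contractile markers were raised. The stromal sum rests on 4 of 7 markers, since Pdgfra, Pdgfrb and Meis2 were under 1 CPM in all libraries. The proximal tubule markers fell in 4 of 5 cases in Pkd1 and 5 of 5 in Pkd2, and the collecting duct markers in 4 of 4 and 3 of 4. Of 4 tested macrophage and leukocyte markers, 1 was called in Pkd1 and 2 in Pkd2. C1qa, a complement gene of macrophages, rose in both (log2 1.28 and 1.21) and Csf1r in Pkd2 (log2 0.35, edgeR adjusted p = 0.0243). In Pkd1 the other 3 had log2 values of 0.12 (Csf1r), 0.20 (Cd68) and -0.09 (Adgre1). The part of these shifts in the proteoglycan values was not tested.

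**Figure D5:**
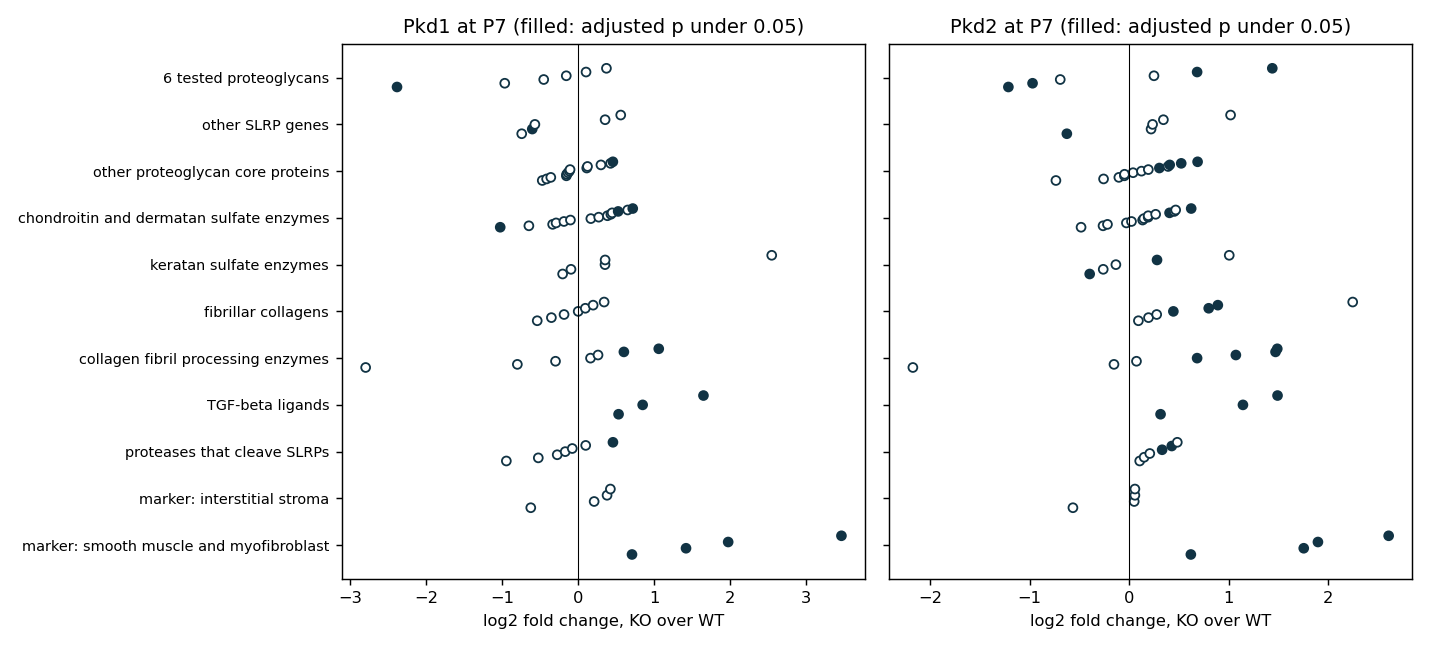
Log2 fold change of KO over WT at P7 for tested genes of 11 lists in both models, with 1 point per gene and filled points for an adjusted p under 0.05. The proteoglycans spread to both sides of 0 while the TGF-beta ligands and contractile markers lie to the right, and the stromal markers lie on both sides with no filled point.

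In Pkd1 at P7, each genotype held Y-linked reads in all of its libraries or in none, so sex and genotype could not be separated there. WT at P1 was the only Pkd1 group with libraries of both kinds (2 with Y-linked reads and 1 without). A covariate for Y-linked reads over all 18 Pkd1 libraries therefore rests on that group and cannot decide the part of sex at P7. In that fit Dcn was at log2 -2.78 ± 1.01 (edgeR adjusted p = 0.248).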

How the data were processed

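RNA was sequenced from whole kidneys in 36 libraries. Per the labels and the methods of the study, the authors called bases with CASAVA 1.8.2, aligned reads to mm10 with TopHat2 2.1.0 and counted them with HTSeq at default options. The deposited table holds raw counts for 29996 RefSeq rows, of which 28978 have a symbol here. The kit and its strand were not given in the sources used here. The members and lists were chosen with earlier results of these data known. The named genes were all 7 members, up to 4 genes of each list that were called at P7 (all where 5 or fewer were called), Pkd1 and Pkd2, and the 10 transcripts most like the members.

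Tested transcripts had 10 or more counts in 3 or more of the 18 libraries of their model, and 6 of the 7 members passed this filter. KO was compared with WT at each day over 6 libraries, and WT days and interactions over all 18 (12 between models), with the quasi-likelihood test of edgeR 4.0.16 (R 4.3.3), TMM factors and Benjamini-Hochberg adjustment over all transcripts. A transcript was called at an adjusted p under 0.05. The scripts were tested on simulated data. Levels are CPM with TMM factors over 36 libraries. Same-numbered libraries of Pkd1 at P1 deviated together (r = 0.41, 0.29 and 0.61). The labels name no shared litter, so whether these numbers pair the samples is not known. In the other 5 comparisons same-numbered libraries did not deviate together. No 2 libraries of a group agreed within sampling noise (chi-square per transcript 4.89 to 59.3 over 36 pairs). Alternatives were DESeq2 1.42.0, RLE factors, other filters, a replicate block, all 18 libraries in one fit, a Y-linked covariate, a 2-fold minimum and leaving out each library. Leaving out the libraries with adrenal transcripts (above 100 summed CPM), doing so within one fit, and summing the rows of a gene were added after seeing the data. Promoters came from RefSeq and positions from GENCODE M21.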

Additional observations from a re-analysis of the deposited data

How the results depend on the processing

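No direction of a called member was reversed under any alternative. The counts in this section are of members only. The shares of all transcripts called under the same alternatives are not given, so the counts have no background beside them. Of 6 members, the count called in Pkd1 at P7 (1) became 2 with DESeq2, where Lum joined Dcn, and 0 with at least 10 counts in every library, which removed Dcn (6 reads in 1 library), with the replicate block, with the Y-linked covariate and without the library with adrenal transcripts; it was 0 to 2 over single omissions. In Pkd2 at P7 (4) it was 1 in the fit of all 18 libraries, 1 with the Y-linked covariate, 2 in that fit without the libraries with adrenal transcripts and 2 with a 2-fold minimum, which removes smaller changes by construction; it was 3 to 4 over single omissions.

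DESeq2 gave 2 calls in Pkd2 at P1, 1 and 2 in the Pkd1 and Pkd2 interactions and 1 between models, each against 0. Without a filter the Pkd1 interaction had 1. For WT days, DESeq2 gave 1 (Pkd2, P3 to P7) and 3 (Pkd2, P1 to P7), against 0 and 1. The replicate block gave 0 for Pkd2 from P1 to P7 and, among pairwise KO comparisons, changed only Dcn in Pkd1 and Ogn in Pkd2 at P7; in WT days it also took the call of Lum (Pkd1, P3 to P7). Leaving out libraries with adrenal transcripts gave 3 and 5 for Pkd2 from P3 to P7 and P1 to P7, and 2 for its interaction. Single omissions gave 0 to 2 for Pkd1 from P3 to P7 (3), with 0 without WT replicate 1 or 3 of P3 and 1 without WT replicate 1 or 3 of P7, and 1 to 5 from P1 to P7 (3), with 5 without WT replicate 1 of P1 and 1 without WT replicate 3 of P1 or P7. They gave 0 to 1 for the Pkd1 interaction, with 1 without WT replicate 1 or KO replicate 3 of P1 or replicate 3 of either genotype of P7. For Pkd2 they gave 0 to 1 from P1 to P3 (1 without WT replicate 1 of P3), 0 to 3 from P3 to P7 (3 without WT replicate 2 of P3) and 0 to 1 from P1 to P7 (0 without WT replicate 2 or 3 of P1 or 1 or 3 of P7). The causes were not tested. Depth limited Dcn most, with 6 to 327 reads per library.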
